A study of Mus musculus with 8 samples.

Results

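The genes described here encode the proteasome and the enzymes that attach ubiquitin to proteins or take it off again, measured by ribosome profiling of mouse liver. They were chosen by symbol. Lines of the deposited table were taken whose symbol begins with Psma to Psmg, Ube2, Uba with a digit, Usp with a digit, Uchl or Otu. The interferon-induced subunits Psmb8, Psmb9, Psmb10, Psme1 and Psme2 and the clock-regulated Usp2 were left out. This gave 85 genes of the 7500 in the table. They fall into 24 proteasome genes, 26 activating and conjugating enzymes, 31 deubiquitinases and 4 genes that carry a matching symbol but another function. RefSeq lists 162 protein-coding mouse genes with such symbols once the named exclusions are made, so 77 of them have no line.

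Ribosome footprints were sequenced from the livers of male FVB/N mice. All of them ate a torula yeast diet deficient in selenium from weaning, either with no selenium added (0 Se) or with 0.1 ppm selenium as sodium selenite (0.1 Se), for 6 weeks. There were 2 mice and 4 libraries per diet, 8 libraries in all. The comparison asks how the supply of selenium bears on the ribosome footprints of each gene. Footprint sums reflect the amount of mRNA as well as its translation. They were not divided by mRNA level here, so the 2 are not told apart.

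The 26S proteasome degrades proteins that carry ubiquitin chains. Its 20S core is a barrel of stacked alpha and beta rings with the proteolytic sites inside, and its 19S particle recognises ubiquitin, unfolds the substrate with a ring of ATPases and threads it into the core. Ubiquitin reaches a substrate in steps: an activating enzyme (E1) charges it, a conjugating enzyme (E2) carries it, and a ligase (E3) places it. Related E1 and E2 pairs do the same for ubiquitin-like proteins such as ISG15, NEDD8 and SUMO. Deubiquitinases cut these modifiers off. Liver uses this machinery for general protein turnover and for clearing misfolded secretory proteins drawn back from the endoplasmic reticulum.

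Values are sums of footprints per diet over both mice, which the authors had adjusted to the same depth, 7469290 footprints for each diet. They were recovered from the deposited test statistics, as described under the processing. No value of a single mouse was used, so whether the mice of the diets overlap cannot be said here. Of the 85 genes, 72 had 1 unique pair of sums, and the sums of 13 abundant genes were estimated. A gene was called when its exact test gave an adjusted p under 0.05 and its ratio exceeded 1.5-fold. The p-values rest on 1 spread common to all genes, and intervals of a single ratio use that spread plus counting error. In a whole liver, fewer cells of a type and less RNA per cell cannot be told apart. Hepatocyte markers dominated the libraries, with Alb at 711835 footprints on 0 Se and 653746 on 0.1 Se, and 6 of 8 listed hepatocyte markers had a line.

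The proteasome had the highest footprint density of the 3 classes, and deubiquitinases the lowest. Density is given as footprints per kilobase of counted length per 1e6 footprints, over both diets together, so that genes of unlike length can be compared. Its median was 102 over the 24 proteasome genes, 33.7 over the 26 activating and conjugating enzymes and 8.20 over the 31 deubiquitinases, against 10.8 over all 7500 lines. The classes differ in length as well, with a median counted length of 745 bases for proteasome genes, 495 for E1 and E2 enzymes and 2691 for deubiquitinases. The 18 subunits of the 20S core and the 19S particle with a line lay between 74.2 and 314. Of the E1 and E2 enzymes, 6 of 26 exceeded the lowest of these subunits, among them Ube2l6, Ube2v1, Uba1, Ube2b and Ube2l3. Of the deubiquitinases, 1 of 31 did, Otub1 at 84.0.

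**Figure D1:**
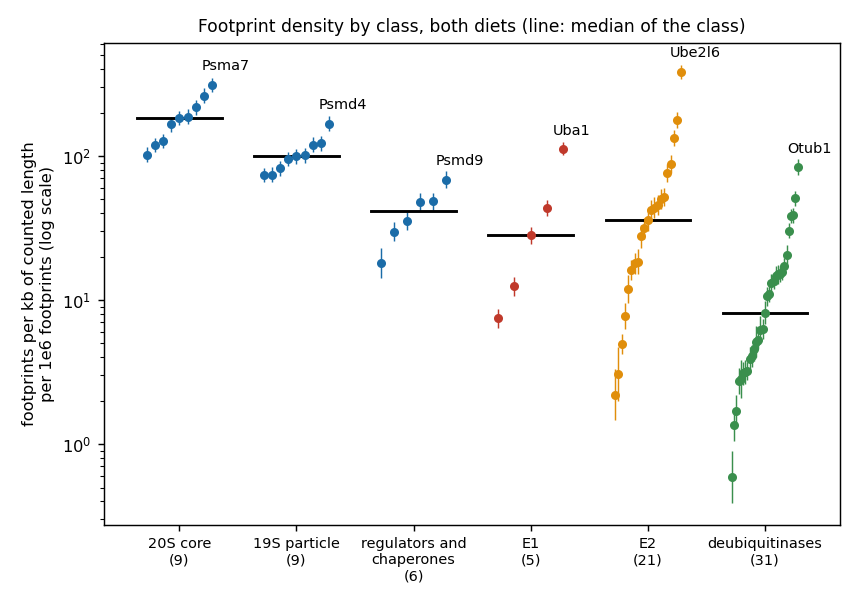
Footprint density of each gene, over both diets, on a log axis in footprints per kilobase of counted length per 1e6 footprints. Points are genes in rising order within a class, bars are 95% intervals from counting error and the common spread, and black lines are class medians. The 9 genes of the 20S core and the 9 of the 19S particle span 3.07-fold and 2.27-fold near the top, while E2 enzymes spread over 174-fold and deubiquitinases over 142-fold.

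Within the 20S core, whose subunits are built into the barrel in equal numbers, density varied 3.07-fold. The alpha subunit Psma7 was highest at 314 (95% interval 280 to 351), and the beta subunits Psmb1 at 263 (234 to 295), Psmb3 at 218 (194 to 245) and Psmb6, which carries the caspase-like site, at 188 (167 to 212) followed. Psma4 stood at 185, Psmb7, which carries the trypsin-like site, at 166, Psma5 at 127, Psma1 at 119 and Psma2 at 102 (90.3 to 116). Neighbours in this order had overlapping intervals, except Psmb7 and Psma5, whose intervals were apart.

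The 19S particle varied less, 2.27-fold over 9 subunits. The ubiquitin receptor Psmd4 led at 168 (150 to 189). The ATPases Psmc3 at 123, Psmc4 at 120 and Psmc2 at 95.3 lay beside the lid subunits Psmd11 at 101, Psmd7 at 99.4, Psmd12 at 82.1 and Psmd13 at 74.4, and the large scaffold Psmd1 was lowest at 74.2 (66.2 to 83.1). Among the genes chosen by symbol, proteins that act on the proteasome rather than inside it had lower densities than these subunits. The inhibitor Psmf1 stood at 48.7 and the nuclear activator Psme3 at 48.1, and the assembly chaperones ran from 68.8 for Psmd9 down to 29.8 for Psmg2 and 18.0 for Psmg4. The interval of Psmd9 (60.2 to 78.6) overlapped that of Psmd1. Outside the chosen genes this order did not hold. The assembly chaperone Pomp stood at 469, and the activator subunits Psme1 and Psme2 at 311 and 145.

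Part of the proteasome densities is uncertain because coding sequence is shared. Psma5 (mm9 chr3:108059844-108082892) and Psmb3 (mm9 chr11:97564713-97574814) have a near copy in the GENCODE transcripts of that build. Of the 30-base windows of their counted sequence, 67.3% and 55.3% also occur in Gm8394 and Gm4950. The study kept reads with 1 place of alignment among RefSeq transcripts, and whether these copies were among them was not tested. The first shared window of each, coding bases 46 to 75, is shown since the sequence of a footprint from it does not tell its gene.
Psma5: tctcctgaaggaagattatttcaagtggaa
Psmb3: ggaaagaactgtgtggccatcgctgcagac

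No proteasome gene was called between the diets, and their ratios ran from 0.726 for Psmd11 upward, with Psmg4 the highest at a log2 ratio of 0.42. Over the whole table, 107 of 7500 lines, or 1.43%, were called by the same rule. The 24 proteasome genes had 19180 footprints on 0 Se and 18493 on 0.1 Se, with a ratio of 0.964 (95% exact interval 0.945 to 0.984, counting error only). The direction of this ratio depends on the scaling: it became 1.03 when the diets were centred on the most abundant genes. Of the 24 genes, 13 were lower and 11 higher on 0.1 Se, with a median log2 ratio of -0.07 against 0.06 over all lines. Among the 165 lines with a log2 CPM and a counted length inside the middle ranges of the proteasome genes, that median was -0.08. The interval of 20 of the 24 genes lay wholly within 1.5-fold in either direction.

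**Figure D2:**
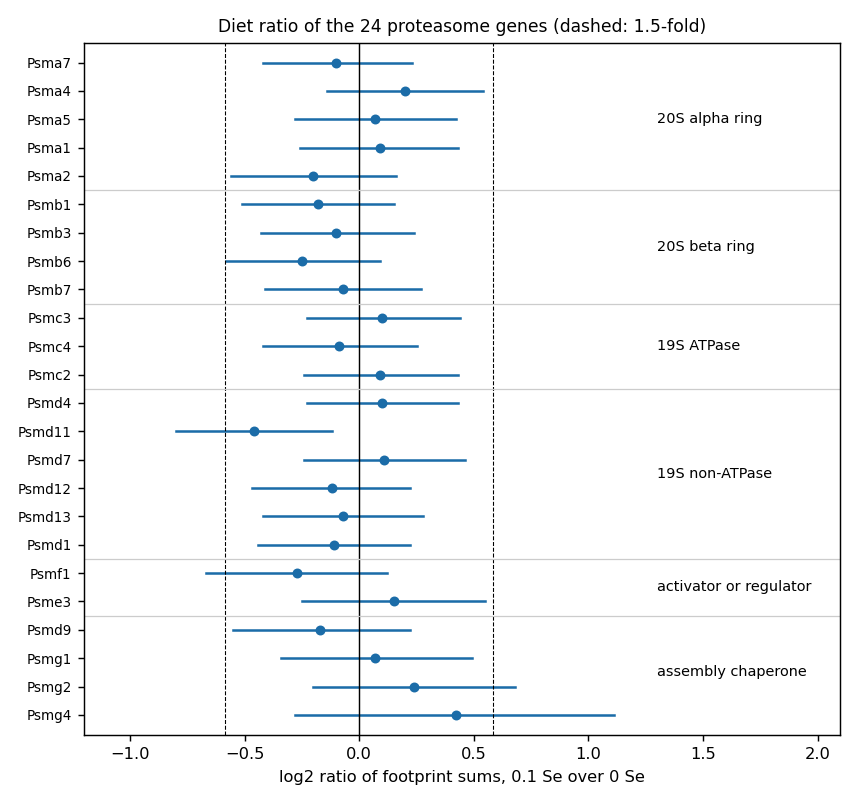
Log2 ratio of footprint sums, 0.1 Se over 0 Se, for the 24 proteasome genes with a line, grouped by subcomplex and ordered by density. Points are ratios, bars are 95% intervals from counting error and the common spread, and dashed lines mark 1.5-fold. The interval of Psmd11 alone leaves out equal sums, and those of Psmd11, Psmf1, Psmg2 and Psmg4 cross a 1.5-fold line.

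In the 20S core all 4 beta subunits with a line were lower on 0.1 Se and 3 of 5 alpha subunits were higher. Psmb1 had 1383 footprints on 0 Se and 1220 on 0.1 Se, Psmb3 938 and 878, Psmb6 1002 and 845, and Psmb7 982 and 936. Their exact p-values ran from 0.16 to 0.69, so none stood apart from equal sums. Among the alpha subunits, Psma4 had 932 and 1070, Psma5 617 and 647, Psma1 632 and 671, Psma7 1664 and 1556, and Psma2 526 and 459. These differences were likewise within the common spread, with ratios from 0.873 to 1.15. The 9 core genes together gave a ratio of 0.955 (0.926 to 0.984, counting error only), and 0.949 without Psma5 and Psmb3. The direction of the core ratio depends on the scaling too. Centring on the most abundant genes, whose median log2 ratio was -0.1, shifts all ratios upward alike. It took the ratio of all proteasome genes from 0.964 to 1.03.

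The 19S particle held the proteasome gene with the lowest ratio. Psmd11, a lid subunit that clamps the 19S particle to the core, had 1059 footprints on 0 Se and 769 on 0.1 Se, with a ratio of 0.726 (95% interval 0.574 to 0.918, exact p = 0.0079, adjusted p = 0.29). Of the other lid subunits with a line, Psmd7 had 647 and 698, Psmd12 838 and 769, and Psmd13 610 and 581. The log2 ratio of Psmd11 differed from that of Psmd7 by -0.57 (95% interval -1.06 to -0.09), from that of Psmd12 by -0.34 (-0.82 to 0.14) and from that of Psmd13 by -0.39 (-0.88 to 0.10), so the interval of 1 of these 3 differences left out 0. The ATPases Psmc3 with 1123 and 1206, Psmc4 with 1107 and 1042 and Psmc2 with 943 and 1005, and the non-ATPase subunits Psmd4 with 1300 and 1391 and Psmd1 with 1610 and 1494, had ratios between 0.928 and 1.07. Outside the particle, the largest ratios belonged to the chaperones Psmg4, with 36 and 48 footprints, and Psmg2, with 150 and 177. Psmf1 had 301 and 249. None of these had an unadjusted p under 0.05.

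Of the 33 listed 20S and 19S subunits, 18 have a line. Those without one are Psma3, Psma6, Psma8, Psmb2, Psmb4, Psmb5, Psmb11, Psmc1, Psmc5, Psmc6, Psmd2, Psmd3, Psmd6, Psmd8 and Psmd14. The table could be checked for missing genes only up to a p of 0.35, and none was missing there. Each of these genes thus either was not tested or had a larger p, and could not have been called. Psma8 and Psmb11 are known as the testis and thymus forms. Because genes with large p-values are missing, the ratios nearest to 1 are under-represented among the genes described, in every class.

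The GRCm38.p6 promoters of RefSeq, 250 bases before to 50 after the start, were searched for 3 motifs on both strands. Only 62 of the 85 genes had a promoter to search, and some had more than 1. Those searched included 19 of the 24 proteasome genes, 19 of the 26 activating and conjugating enzymes and 22 of the 31 deubiquitinases. The core of the antioxidant response element, TGACNNNGC, was sought because selenium status bears on redox defence, and it occurred in 12.4% of all 32851 promoters and in 3 of 20 proteasome promoters, 4 of 27 promoters of activating and conjugating enzymes and 7 of 23 promoters of deubiquitinases. The interferon-stimulated response element core, GAAANNGAAA, occurred in 3.44% of all promoters and in 4 of 20 proteasome promoters, those of Psmb3, Psmd4, Psmd9 and Psmg4, and in 0 of the 27 and 0 of the 23. The gamma-activated site TTCNNNGAA occurred in 8.3% of all promoters and in 1 of the 20, 1 of the 27 and 0 of the 23. Windows of 30 bases upstream of the start are shown for subunits described above, with the match in capitals; in the first and second it lies on the opposite strand. They are given as letters found, not as sites in use.
Psmb3, interferon-stimulated response element core, GRCm38.p6 chr11:97703261-97703290, + strand: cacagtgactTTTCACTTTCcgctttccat
Psmd4, the same core, GRCm38.p6 chr3:95042675-95042704, - strand: ataaccaaccTTTCCATTTCtgtggcgcct
Psmb6, antioxidant response element core, GRCm38.p6 chr11:70525327-70525356, + strand: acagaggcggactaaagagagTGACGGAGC
Psmb3, Psmd4 and Psmb6 had ratios of 0.936, 1.07 and 0.843, none of them called.

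The 1 gene called among the 85 was Uba7, the E1 of the interferon-induced modifier ISG15. It had 111 footprints on 0 Se and 211 on 0.1 Se, rising 1.90-fold (95% interval 1.39 to 2.61, exact p = 6.9e-05, adjusted p = 0.011). Uba7 lies at mm9 chr9:107877895-107886387, and its footprints were counted over 2874 bases of coding sequence. Its density was 5.17 on 0 Se and 9.83 on 0.1 Se, the lowest of the 5 E1 enzymes over both diets. A share of 1 in 85 is 1.18%, near the 1.43% of all lines. The call was lost when the spread between mice was set to a coefficient of variation of 0.2, with a Bonferroni adjustment, and with a threshold of 2-fold.

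The partners of Uba7 did not pass the test. Ube2l6, the E2 of ISG15, had the highest density of all 26 activating and conjugating enzymes, 385 (343 to 432), with 1061 footprints on 0 Se and 1252 on 0.1 Se (ratio 1.18, 0.937 to 1.49). Usp18, the protease that removes ISG15, had 44 and 53 footprints. Herc6, the mouse ligase for ISG15, is not among the 85 genes and had 142 and 228, a ratio of 1.61 with an exact p of 0.0022 and an adjusted p of 0.13. All 4 ratios were above 1, as were those of 50.4% of all lines. Uba7 was named because it was called, and the list holding Herc6 was drawn up with results of these data known. The intervals of Ube2l6 and Usp18 (0.765 to 1.90) covered equal sums. The log2 ratio of Uba7 exceeded that of Ube2l6 by 0.69 (95% interval 0.12 to 1.25), and that of Usp18 by 0.66 (-0.14 to 1.46), so only the first difference left out 0. These 2 pairs were chosen after their values were seen. Isg15 itself has no line.

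Markers of Kupffer cells, the macrophages of the liver, lay on the same side as Uba7. Of 7 listed markers 6 had a line and all 6 were higher on 0.1 Se, with 3323 footprints in sum on 0 Se and 4145 on 0.1 Se. Clec4f, which defines Kupffer cells, had 1793 and 2263 (exact p = 0.043, adjusted p = 0.6). None of the 6 lymphocyte or 5 erythroid markers had a line, of 4 neutrophil markers 1 had a line, at 8 and 11 footprints, and 3 of 4 cholangiocyte markers summed to 49 and 45. Markers of other resident cells lay lower on 0.1 Se in sum, with 2650 and 2114 footprints for 4 endothelial and 1724 and 1177 for 5 stellate cell markers. Of the endothelial markers, Stab2 had 1316 and 984, Kdr 729 and 580 and Cdh5 523 and 442, while Pecam1 was higher, at 82 and 108. Most of the stellate difference was Reln, which was called at 1109 and 647, the nearest of several fitting pairs. The other 4 summed to 615 and 530, and of these Des was higher, at 16 and 27. In addition, the 6 hepatocyte markers were each lower. Serpina1a had the lowest ratio, from an estimated 2169 and 1456 (exact p = 0.00057, adjusted p = 0.053). These 6 are abundant, with a log2 CPM of 7.93 or more. Of all lines, 33.3% were higher at a log2 CPM of 8 or more, and 43.4% between 7 and 8. Clec4f, at 8.09, was itself in the upper range. The part of abundance in the hepatocyte values was not tested, nor was that of any of these cell types in the Uba7 result.

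None of the other E1 enzymes was called. Uba1, which charges ubiquitin itself, had 2553 footprints on 0 Se and 2678 on 0.1 Se and the highest density of the 5 E1 enzymes, 112 (101 to 126). Uba3, of the NEDD8 enzyme, had 294 and 268, and Uba2, of the SUMO enzyme, 185 and 161. The E2 enzymes of NEDD8 gave 183 and 201 for Ube2m and 76 and 61 for Ube2f. Ube2f had the lowest ratio of these 4 enzymes, 0.803, Ube2m the highest, and the interval of each of the 4 covered equal sums.

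Among the 17 ubiquitin E2 enzymes and E2 variants, 2 had an unadjusted p under 0.05. Of all lines, 6.16% were higher on 0.1 Se at this threshold and 4.75% lower. Ube2g2, which serves degradation of proteins drawn from the endoplasmic reticulum, had 69 footprints on 0 Se and 112 on 0.1 Se (ratio 1.62, 1.12 to 2.35, exact p = 0.012, adjusted p = 0.35). Of its 30-base windows 32.5% also occur in an annotated transcript of its neighbour Sumo3, which had 113 and 123. Ube2q2 had 49 and 76 (exact p = 0.047, adjusted p = 0.61). The other E2 enzymes of the endoplasmic reticulum membrane were Ube2j1, with 113 and 128, and Ube2j2, with 14 and 11, which was the E2 of lowest density at 2.21. The lowest ratios of enzymes with at least 50 footprints were those of Ube2e3, with 58 and 43, Ube2b, a DNA repair E2, with 292 and 232, and Ube2f. The cell-cycle E2 Ube2c had only 8 and 14 footprints.

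Sequence sharing was most extensive among the small E2 genes. Ube2v1, a catalytically inactive variant that pairs with Ube2n to build lysine-63-linked chains, shares 100% of its windows with Tmem189, the neighbouring gene annotated to be read through into it. Ube2n shares 49.5% with Ube2nl, Ube2f 33.9% with Gm5434 and Ube2v2 29% with Gm10088. Their sums are thus uncertain: 542 and 485 for Ube2v1, 112 and 102 for Ube2n, and 123 and 115 for Ube2v2. The study kept only reads with 1 place of alignment, so Ube2v1 could have such sums only without a full copy in the set aligned to. Footprints of the read-through transcript would then count as Ube2v1. For the others, whether the copies were in that set was not tested. The first shared window of both variants, coding bases 46 to 75, is shown, since the sequence of a footprint from it does not tell its gene.
Ube2v1: cgactgttggaagagctggaagaaggacag
Ube2v2: ttggaagaacttgaagaaggacaaaaagga

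Summed over the 26 enzymes, footprints numbered 7684 on 0 Se and 8031 on 0.1 Se, with a ratio of 1.05 (1.01 to 1.08, counting error only). The direction is not firm. The median of the members' own ratios was 0.990, the ratio was 0.988 when the diets were centred on genes of middle abundance, and 13 enzymes were higher and 13 lower. Uba1 alone held 5231 of these footprints.

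**Figure D3:**
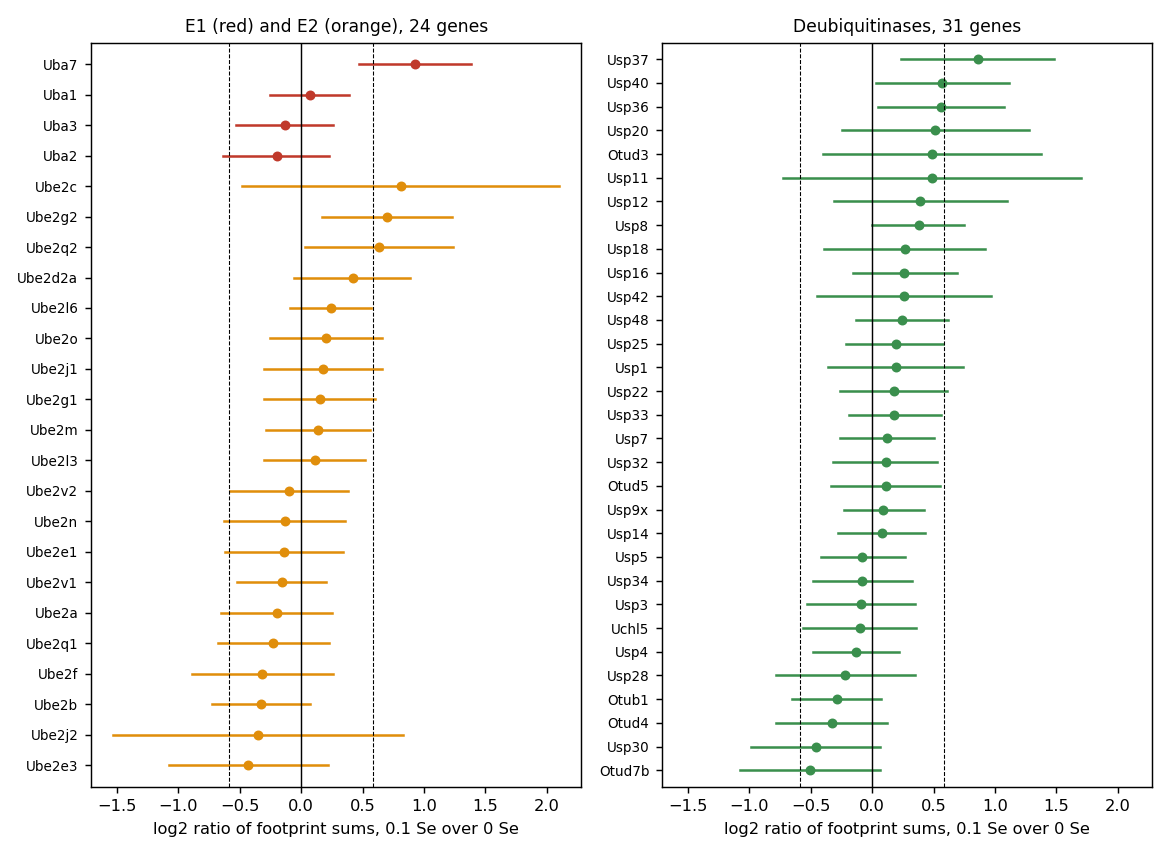
Log2 ratio of footprint sums, 0.1 Se over 0 Se, for 24 of the 26 activating and conjugating enzymes and the 31 deubiquitinases, ordered by ratio within E1, E2 and deubiquitinases. Points are ratios, bars are 95% intervals from counting error and the common spread, and dashed lines mark 1.5-fold. Uba7 stands highest among the E1 enzymes, and the intervals of Ube2g2, Ube2q2, Usp37, Usp40 and Usp36 also lie above 0.

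No deubiquitinase was called, against 1.43% of all lines. An unadjusted p under 0.05 was found for 3 of 31, all higher on 0.1 Se. That is 9.68%, near the 6.16% of all lines that were higher at this threshold. Usp37, a nuclear protease of the cell cycle, had 42 footprints on 0 Se and 76 on 0.1 Se (ratio 1.81, 1.17 to 2.79, exact p = 0.0086, adjusted p = 0.3). Usp36, which acts in the nucleolus, had 80 and 118 (exact p = 0.037, adjusted p = 0.57). Usp40 had 68 and 101 (exact p = 0.045, adjusted p = 0.6). These are sparse genes, each with a density between 2.74 and 4.09. At the other end, Otud7b, an editor of lysine-11-linked chains, had 84 and 59, Usp30, which sits on the outer mitochondrial membrane, 106 and 77, and Otud4 171 and 136, all with an unadjusted p above 0.05.

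The 5 deubiquitinases with the highest density had no unadjusted p under 0.05. Otub1 had 522 footprints on 0 Se and 427 on 0.1 Se, with a ratio of 0.818 (0.637 to 1.05). Usp14, which trims chains on the proteasome, had 527 and 556 and a density of 51.0, while Uchl5, the other ubiquitin protease that binds the 19S particle, had 149 and 139 and a density of 20.7. Usp5, which recycles free chains, had 750 and 710, Usp9x 2103 and 2244 and Usp4 668 and 612, each with a ratio between 0.916 and 1.07. The X-linked Usp11, with 10 and 14 footprints, and Usp42, with 36 and 43, were the lowest in density, at 0.594 and 1.35.

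More deubiquitinases were higher than lower on 0.1 Se, 21 of 31 or 67.7%, against 50.4% of all lines and 54.7% of the 889 lines with a log2 CPM and a counted length inside their middle ranges. Within the class, 19 of 25 proteases of the USP family were higher, and 2 of the 5 OTU proteases. Their median log2 ratio was 0.18, against 0.10 in those 889 lines. Summed footprints numbered 8231 on 0 Se and 8584 on 0.1 Se, with a ratio of 1.04 (1.01 to 1.08, counting error only). That ratio turned to 0.986 when the diets were centred on genes of middle abundance. No test was made of the class.

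**Figure D4:**
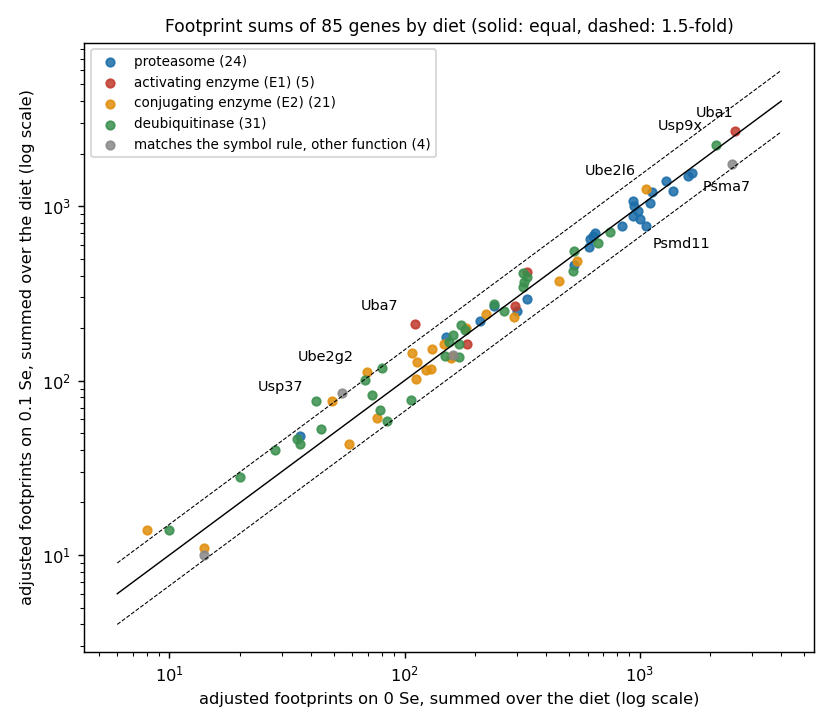
Adjusted footprints of all 85 genes summed over each diet, 0 Se on the horizontal and 0.1 Se on the vertical axis, both on log scales. Colours mark classes, the solid line equal sums and the dashed lines 1.5-fold. Most proteasome genes lie at the abundant end between the dashed lines, with the chaperone Psmg4 far lower at 36 and 48, and Uba7, with 111 and 211, lies outside the upper dashed line.

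Counted together, 9 of the 85 genes had an unadjusted p under 0.05. Of these, 7 were higher on 0.1 Se, or 8.24%, against 6.16% of all lines, and 2 were lower, or 2.35%, against 4.75%. These shares are near those of all lines. The split follows the scaling, since centring on genes of middle abundance gave 3 higher and 5 lower, and centring on the most abundant genes 11 and 2. By class, the higher genes were 3 of 26 activating and conjugating enzymes, 3 of 31 deubiquitinases and 0 of 24 proteasome genes, and the lower ones included 1 proteasome gene. Differences between classes were not tested.

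Some of the 85 genes have a matching symbol but a product that belongs elsewhere. Usp6nl, a GTPase-activating protein of Rab proteins, had 54 footprints on 0 Se and 85 on 0.1 Se (exact p = 0.032, adjusted p = 0.54). The splicing factor Usp39 had 160 and 141, and the ligase Ube2cbp had 14 and 10.

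Beyond the 85 genes, 114 further genes of the pathway were listed and 77 had a line. Of these 4 were called, all higher on 0.1 Se, or 5.19% against 1.43% of all lines. At an unadjusted p under 0.05, 7 were higher, or 9.09% against 6.16% of all lines, and 0 were lower, against 4.75%. The list was drawn up with results of these data known, so these shares are a description. Psmb8, Psmb9 and Psmb10, the catalytic subunits of the immunoproteasome, were 3 of the 4, with 243 and 406, 97 and 183, and 110 and 219 footprints. The sums of Psmb10 are the nearest of several fitting pairs. As densities, Psmb9 came to 10.6% of the constitutive subunit it replaces, Psmb6, on 0 Se and 23.7% on 0.1 Se, and Psmb10 to 11.4% and 23.8% of Psmb7, ratios that no scaling between the diets alters. Of the partners in the activator PA28, Psme2 had 609 and 816 (exact p = 0.017, adjusted p = 0.41) and Psme1 had 1525 and 1681 (exact p = 0.4).

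The fourth was Syvn1, the membrane ligase of endoplasmic reticulum-associated degradation. It had 580 and 1344 footprints, the nearest of several fitting pairs, and was 2.32-fold higher on 0.1 Se (exact p = 5.2e-12, adjusted p = 3.9e-09). Ube2g2 and Ubxn4, which act in the same route, had ratios of 1.62 and 1.32, the latter from an estimated 958 and 1260 (exact p = 0.021, adjusted p = 0.46), while Ube2j1 had 1.13 and Ube2j2 0.786. Among other genes of that route, the segregase Vcp had a ratio of 1.14 and its cofactors Ufd1l and Nploc4 had 1.06 and 0.940, the deglycosylating enzyme Ngly1 had 0.913 and the ligase Rnf185 had 0.825, none with an unadjusted p under 0.05. These genes were picked after their values were seen. Of 39 ligases with a line 1 was called. None of the 13 shuttle and segregase genes, the 13 further deubiquitinases or the 3 other ubiquitin genes was called. Ubb, which encodes a chain of ubiquitin units, had 1318 and 1414 footprints, and Rps27a, which encodes ubiquitin fused to a ribosomal protein, had 795 and 843.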

How the data were processed

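Ribosome footprints of 8 liver libraries were processed by the study's authors. They trimmed adapters, removed ribosomal RNA reads with Bowtie, and aligned the rest with up to 2 mismatches to the longest RefSeq isoform of each gene (mm9), keeping reads with 1 place of alignment. The authors left 15 codons at the start and 3 at the end uncounted and tested with edgeR each gene that passed 1 CPM in 3 or more samples. Versions of both tools: not given in the sources used here. A single deposited table holds 1 line per gene with the authors' length, log2 CPM averaged over libraries, log2 fold change, linear fold ratio, p-value and FDR. These comparison columns were used only as input to recover sums, and none of their fold ratios or p-values is printed.

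The p-values have the form of an exact negative binomial test of 2 whole sums with 1 dispersion: all 60 of the most repeated p-values matched. How the 2 libraries of a mouse were joined is not stated in the sources used here. With 2 libraries per diet assumed, the repeats of a mouse joined, the dispersion was 0.0121, a biological coefficient of variation of 0.11. Both values depend on this assumption and would be larger with 4 libraries per diet, while the exact p-values do not depend on it. The sums are footprints after depth adjustment, with a unique pair for 6715 of 7500 lines, the nearest of several pairs for 30 and an estimate from the fold ratio and the log2 CPM for 755. Moving each p-value by 0.01% left a pair for 0.55% of lines under a log2 CPM of 6, against 100.0% before. In a simulation of 5208 lines, 100.0% of unique pairs were right. Ranks of the deposited FDR values gave 10398 tests, matching at 785 of 785 places up to a p-value of 0.35. So 2898 tested genes have no line, and the highest p-value of a line is 0.767.

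From the sums, a 2-sided exact test with that dispersion was run for every line and adjusted over 10398 tests by the Benjamini-Hochberg method. Intervals of single log2 ratios add the dispersion to counting error. Those of summed ratios are Clopper-Pearson and cover counting error only. Density divides by the deposited length, which for 83 of the 84 members found in GENCODE transcripts was the coding sequence less 60 bases. The p-values measure only the spread that this common dispersion holds.

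The members, lists and tests were chosen with earlier results of these data known. Named genes are those called or with an unadjusted p-value under 0.05, the 3 highest and lowest ratios of each class with at least 50 footprints, the 5 highest and 2 lowest densities of each class, and every 20S and 19S subunit. A few genes of these sets are counted in the totals but not reported here by name. Usp6nl was set apart from the deubiquitinases after its values were seen. The enzymes of ubiquitin-like modifiers and of the endoplasmic reticulum, Usp18, Uchl5 and the remaining genes named outside this rule, the pairs of genes compared and the promoter windows shown were also chosen then. Alternatives were other dispersions, centrings, thresholds and sets of members. Python 3.11.15 with numpy 2.4.6, pandas 2.3.3 and SciPy 1.17.1 was used.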

Additional observations from a re-analysis of the deposited data

How the results depend on the processing

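Uba7 was the 1 gene called by the main test, and it was also called with a log2 CPM of at least 3, with unique pairs of sums only, with no fold threshold, with both centrings and without genes over 25% of whose windows are shared. It was lost, leaving 0 calls among the 85, with a fold over 2, with a Bonferroni adjustment, and with a biological coefficient of variation of 0.2 or 0.3. At an unadjusted p under 0.05 these 2 spreads left 2 and 0 of the 9 genes. With counting error alone 3 genes were called (Uba7, Ube2g2 and Usp37) and 26 had an unadjusted p under 0.05. Centring on a log2 CPM between 4 and 6, where the median log2 ratio was 0.08, called 2 of the 85. Centring on a log2 CPM of 8 or more, with a median of -0.1, gave 13 with an unadjusted p under 0.05.

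Ratios of summed footprints changed most with the centring. Centred on the most abundant genes they were 1.03 for the proteasome, 1.12 for activating and conjugating enzymes and 1.11 for deubiquitinases. Centred on genes of middle abundance they were 0.912, 0.988 and 0.986. The median of the members' own ratios was 0.99 for the enzymes and 1.13 for the deubiquitinases. Counting as enzymes the genes that share only the symbol gave 0.962; this and the setting on shared windows were chosen after seeing the data. The cause of these changes was not tested beyond the construction of each alternative.

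No paired analysis was possible because the diets share no mouse numbers and no value of a single mouse was used. Leaving out each mouse was not run for the same reason. Genes with few footprints limit what can be seen: Ube2c, with 8 and 14, has an interval of 0.715 to 4.28.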
